A study of Homo sapiens with 24 samples.

Results

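Antisense noncoding genes were followed across knockdowns of the paraspeckle proteins SFPQ and NONO in SBC-3 cells. Members were all genes whose symbol ends in AS and a number, which names a gene on the opposite strand of another gene, with at least 10 reads over the 24 libraries. There were 904 such genes among 25581 genes with that many reads and 60605 genes listed. Each was set beside its partner, the gene named in its symbol. A partner was listed for 889 members, and for 878 of these it was protein-coding. 1 gene that the symbol rule would include is not reported here.

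Poly(A) RNA was sequenced from SBC-3, a line labelled small cell lung cancer and wild type in genotype, 72 h after transfection at 10 nM, with 3 libraries in each of 8 groups. The siRNAs siSFPQ-2 and siSFPQ-3 target SFPQ, siNONO-3 and siNONO-4 target NONO, and siCtrl is their control. The antisense oligonucleotides ASO-NEAT1-1047 and ASO-NEAT1-1473 target NEAT1, a long noncoding RNA that paraspeckles need, and ASO-Ctrl is their control. All groups are the same line, and the labels do not tie the 3 libraries of a group to separate cultures. The p-values then rest on the spread between these libraries, which may be technical.

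The labels were checked first. SFPQ averaged 207 ± 47.2 CPM in siSFPQ-2 and 222 ± 27.2 CPM in siSFPQ-3, against 1221 ± 40.1 CPM in siCtrl (SD, n = 3 each), where CPM is a gene's reads relative to its library's scaled total (edgeR). NONO averaged 69.1 ± 9.28 CPM in siNONO-3 and 69.9 ± 5.05 CPM in siNONO-4, against 398 ± 14.8 CPM in siCtrl. NEAT1 did not pass the test in the ASO arm, at 297 ± 46.9 CPM in the libraries labelled ASO-NEAT1-1047 and 205 ± 25.4 CPM in those labelled ASO-NEAT1-1473, against 297 ± 85.6 CPM in ASO-Ctrl (log2 fold change -0.26, adjusted p 1). The targets also changed outside their own arm. After SFPQ knockdown NEAT1 rose by 1.06 on the log2 scale (adjusted p 0.000261) and NONO by 0.52 (adjusted p 5.12e-07). After NONO knockdown SFPQ rose by 0.34 (adjusted p 0.011). In siCtrl, YAP1 stood at 406 CPM. Of the neuroendocrine genes, SYP stood at 17.2 CPM and NEUROD1 at 4.61 ± 0.08 CPM in siCtrl, while INSM1, CHGA and NCAM1 were at or near 0, as were the immune genes PTPRC, CD3E and CD68. NEUROD1 fell by 1.36 after SFPQ knockdown (adjusted p 0.000464) and rose by 1.19 after NONO knockdown (adjusted p 0.00212), whereas SYP rose by 1.52 after SFPQ knockdown (adjusted p 2.32e-07) and fell by 0.73 after NONO knockdown (adjusted p 0.0106), and their part in the results was not tested. In these bulk samples, fewer cells of a kind and less RNA per cell cannot be told apart.

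As background, an antisense gene is transcribed from the strand opposite its partner. Where both start from neighbouring promoters that point away from each other, the arrangement is called head to head, and such promoters often share regulatory DNA. Other antisense genes start inside an intron of the partner or run into its far end, and some antisense RNAs are known to act on the gene they overlap. SFPQ and NONO are RNA-binding proteins of the DBHS family, and SFPQ is known to be needed for the full transcription of very long genes.

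By the coordinates in the deposited files (hg38), 384 members overlapped their partner head to head, 238 lay inside it, 151 overlapped it tail to tail and 64 contained it. The head-to-head class here is any partial overlap that holds both starts, with no limit on the distance between them. A further 42 pointed away from the partner without overlap, at any distance, 7 faced it without overlap, 3 lay on its strand, and 15 had no listed partner. The strand setting of the counting is not given in the sources used here, so reads in bases that member and partner share are uncertain. Of the 904 members, 195 had no exonic base under an exon of the opposite strand, 90 had more than 50% of their exons there, and the median was 10.0%. Among 13 members that lay wholly under exons of a partner with at least 1000 reads, the read density ran from 0.405% to 92.0% of the partner's, with a median of 3.42%. RCC2-AS1, for example, had 13 reads where RCC2 had 42110.

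Promoter windows of RefSeq (GRCh38.p14), 250 bases before to 50 after each start, matched 657 of the 904 members. The 4 printed here belong to a pair of members that rose with a head-to-head partner (ELF3-AS1 and EPHA5-AS1) and a pair that moved against a partner they lie in (SEMA6A-AS1 and DLGAP1-AS2). Each reads 5′ to 3′ on the member's strand, and capitals mark TATAAA or CCAAT on either strand, where TTTATA and ATTGG are the forms of the opposite strand. They are ELF3-AS1 at chr1:202010304-202010603 (minus strand), EPHA5-AS1 at chr4:65669711-65670010 (plus), SEMA6A-AS1 at chr5:116447248-116447547 (plus) and DLGAP1-AS2 at chr18:3603487-3603786 (plus).
ELF3-AS1: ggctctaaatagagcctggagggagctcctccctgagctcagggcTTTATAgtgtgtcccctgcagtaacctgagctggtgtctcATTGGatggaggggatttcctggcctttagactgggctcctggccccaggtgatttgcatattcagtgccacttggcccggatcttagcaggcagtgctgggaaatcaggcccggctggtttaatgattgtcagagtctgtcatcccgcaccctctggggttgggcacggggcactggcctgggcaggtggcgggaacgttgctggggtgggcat
EPHA5-AS1: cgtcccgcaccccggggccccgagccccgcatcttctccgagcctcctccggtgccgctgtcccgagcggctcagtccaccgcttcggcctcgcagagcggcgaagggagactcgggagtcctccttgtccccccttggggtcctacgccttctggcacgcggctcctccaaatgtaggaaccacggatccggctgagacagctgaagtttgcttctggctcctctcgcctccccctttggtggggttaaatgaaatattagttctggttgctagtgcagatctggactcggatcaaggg
SEMA6A-AS1: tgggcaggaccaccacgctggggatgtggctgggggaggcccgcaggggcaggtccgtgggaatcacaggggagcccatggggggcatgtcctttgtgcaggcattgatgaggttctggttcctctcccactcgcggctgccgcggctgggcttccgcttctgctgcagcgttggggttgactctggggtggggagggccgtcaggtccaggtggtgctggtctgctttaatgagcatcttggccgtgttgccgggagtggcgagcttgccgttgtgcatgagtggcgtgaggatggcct
DLGAP1-AS2: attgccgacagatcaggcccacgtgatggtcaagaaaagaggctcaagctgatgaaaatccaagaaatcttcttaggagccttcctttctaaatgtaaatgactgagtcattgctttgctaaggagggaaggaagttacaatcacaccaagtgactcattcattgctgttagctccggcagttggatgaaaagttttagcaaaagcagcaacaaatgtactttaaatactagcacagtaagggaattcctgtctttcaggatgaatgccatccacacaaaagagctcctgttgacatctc

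The EPHA5-AS1 window held 23 CG pairs, the SEMA6A-AS1 window 15, the ELF3-AS1 window 6 and the DLGAP1-AS2 window 3. Only the ELF3-AS1 window of these 4 held either motif, 1 TATAAA and 1 CCAAT. The RefSeq starts of ELF3-AS1 and ELF3 lay 234 bases apart and their windows shared 267 bases, while those of EPHA5-AS1 and EPHA5 lay 473 bases apart and shared 28. Over all member windows the median was 20 CG pairs, against 14 over all promoters of the table. TATAAA, searched on both strands, was in 7.41% of member windows and 11.5% of all windows. CCAAT was in 31.3% and 34.6%, and GGGCGG, the core of the GC box, in 54.2% and 45.0%. The 123 windows of 99 members that rose after SFPQ knockdown had a median of 20 CG pairs. The 159 windows of 130 members that fell had 27, beside 23 over the windows of all tested members. Medians over all genes that rose or fell were not taken, so this difference may not be particular to members. These are descriptions of letters, not of bound sites.

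Members were expressed at low levels. Of the 904, 456 (50.4%) passed the filter on low counts and were tested, and 448, with 10 to 166 reads each, did not. In siCtrl the median level of tested members was 0.759 CPM per kb of exon, against 5.11 for their tested partners and 3.12 for all genes tested. A member was higher per kb than its partner in 72 of the 398 pairs in which both were tested. Per kb, FGD5-AS1 led the 10 members of highest CPM with 32.2 CPM per kb in siCtrl, while FGD5, a guanine exchange factor gene, had no read there. OIP5-AS1, a conserved long noncoding RNA also called cyrano, stood at 16.2 CPM per kb, and OIP5 at 9.52.

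After SFPQ knockdown, 127 of 456 tested members rose and 160 fell at an adjusted p under 0.05 (edgeR's quasi-likelihood test, all genes). That is 62.9% called, where 70.4% of all 15869 genes tested were called, 34.7% up and 35.8% down. Rises made up 27.9% of tested members and falls 35.1%. The median member changed by -0.11 on the log2 scale, and the interquartile range ran from -1.02 to 0.59, against a median of -0.02 over all genes. Changes past 2-fold were found in 73 of the 456 members up and 114 down, beside 2806 up and 2363 down of all 15869 genes. The partners of members split evenly, with 275 risen and 276 fallen of 741 tested.

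The calls were made with each siRNA as well. siSFPQ-2 gave 241 called members, or 52.9% of those tested beside 64.9% of all genes. siSFPQ-3 gave 263, or 57.7% beside 67% of all genes. Of the 456 tested, 203 were called with both and in their mean in 1 direction, where 55.8% of all genes were. Other noncoding classes lay on either side. Of 213 tested divergent transcripts (DT symbols, which start beside a coding gene's promoter) 53 rose and 76 fell, or 60.6% called, with a median of -0.24. Of 268 intergenic LINC genes 83 rose and 116 fell, or 74.3% called, with a median of -0.33. The siSFPQ libraries had 4243196 to 9747514 reads and 9.59% to 11.6% mitochondrial reads, against 9999025 to 13525528 reads and 7.63% to 9.07% in siCtrl, and the part of this in the result was not tested.

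**Figure D1:**
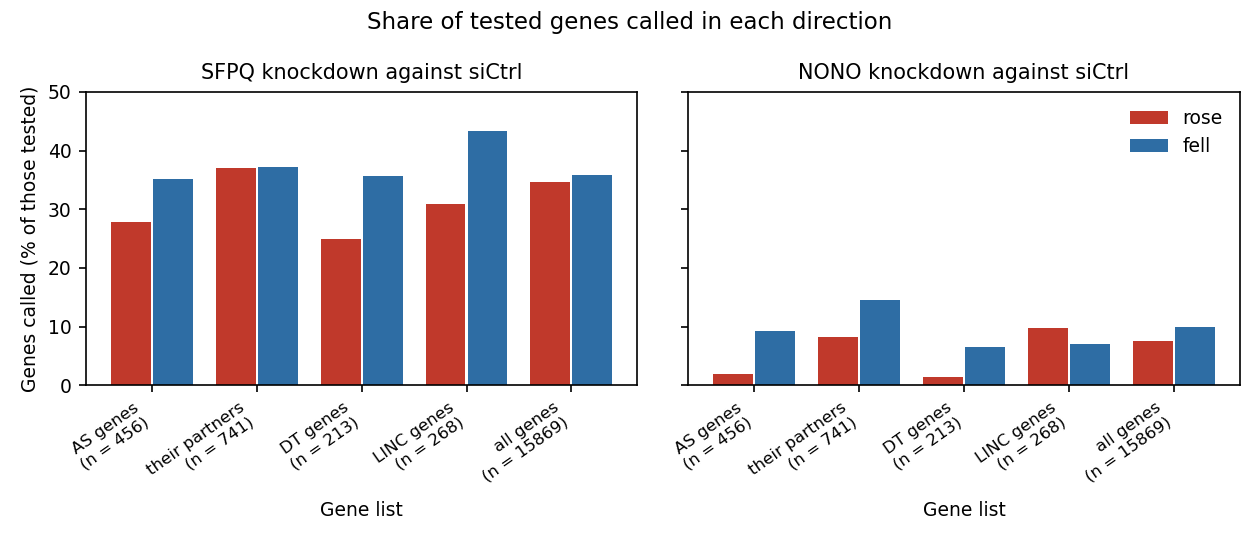
Bars give the percent of tested genes that rose (red) or fell (blue) at an adjusted p under 0.05 after SFPQ knockdown (left) and NONO knockdown (right), each against siCtrl, with the number tested under each list. AS genes had 27.9% risen and 35.1% fallen after SFPQ knockdown, and 1.97% and 9.21% after NONO knockdown, beside 7.48% and 9.96% of all genes.

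Over all genes, 34.7% rose and 35.8% fell. By arrangement, the head-to-head members had 60 risen and 82 fallen of 218 tested (27.5% and 37.6%), with a median of -0.11. Those overlapping tail to tail had 17 and 32 of 81 (21.0% and 39.5%), with a median of -0.40. Members inside their partner had 27 risen of 78 (34.6%), near the share of all genes, and 22 fallen (28.2%), with a median of 0.14. Members that contain their partner had 14 and 12 of 41 (34.1% and 29.3%), with a median of 0.27. No test was made of the difference between arrangements.

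Member and partner were then read together. Of the 398 pairs with both tested, both were called after SFPQ knockdown in 181, in the same direction in 108 (48 both up, 60 both down) and in opposite directions in 73. The head-to-head pairs held 66 same and 31 opposite, so 68.0% of those called on both sides went the same way, and Spearman's rho between the changes was 0.38 over 203 pairs. Pairs with the member inside the partner held 14 same and 17 opposite, with rho -0.08 over 73 pairs. Tail-to-tail pairs held 11 and 13, with rho -0.03 over 70 pairs. All points share the same libraries, and overlapping pairs may share reads, so the coefficients describe these data only.

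Pairs that share no exonic base gave a similar balance, with 31 same and 20 opposite among 100, and pairs that do not overlap at all had 10 and 7 among 29. Among the 147 pairs of any arrangement with annotated starts within 1 kb of each other, 48 went the same way and 27 opposite. Among the 251 with starts farther apart, the counts were 60 and 46. By RefSeq promoter window, 110 pairs whose windows shared bases held 36 same and 24 opposite, and 174 pairs whose windows shared none held 45 and 30. For the DT genes and their partners the counts were 66 same and 24 opposite among 210 pairs.

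**Figure D2:**
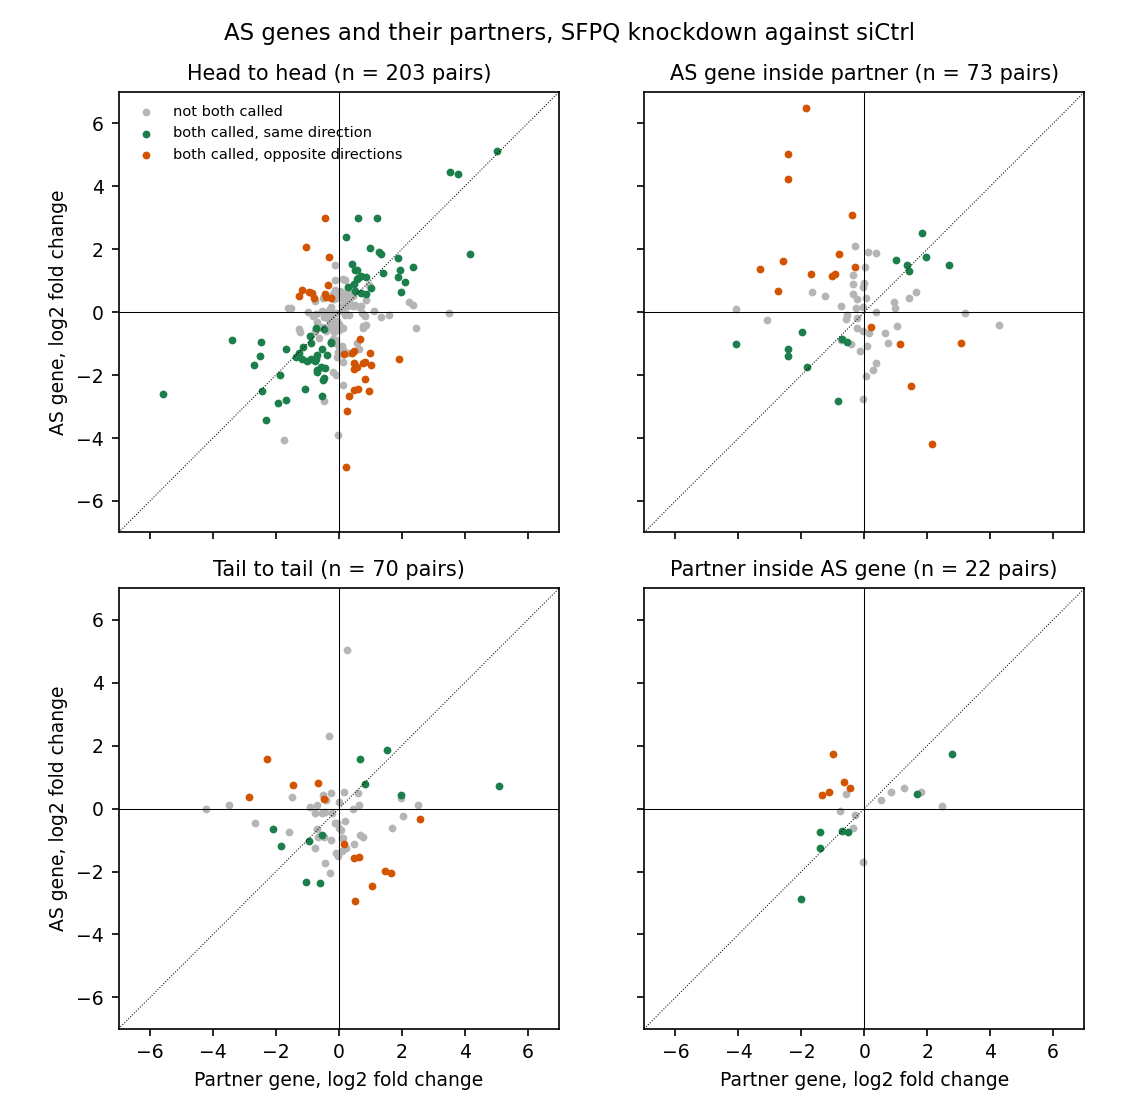
Each point is 1 pair, with the partner's log2 fold change after SFPQ knockdown on the horizontal axis and the AS gene's on the vertical axis, in panels by arrangement. Green points (both called, same direction) outnumber orange ones (opposite) 66 to 31 in the head-to-head panel, but not in the panel of AS genes inside their partner, at 14 to 17, where several orange points lie at the upper left. The dotted line marks equal change.

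ELF3-AS1 (chr1:201995696-202010463, minus strand, hg38) and its head-to-head partner ELF3, an epithelial transcription factor of the ETS family, rose together. ELF3-AS1 had 9.70, 6.19 and 4.50 CPM in siSFPQ-2 and 9.17, 15.9 and 10.7 CPM in siSFPQ-3, against 0.268, 0.306 and 0.582 CPM in siCtrl. ELF3 had 12.0, 8.91 and 7.23 CPM in siSFPQ-2 and 18.1, 21.9 and 19.2 CPM in siSFPQ-3, against 1.25, 1.33 and 0.945 CPM in siCtrl. Every siSFPQ library was above every siCtrl library for both genes. The log2 fold changes were 4.45 (SE 0.49, adjusted p 1.77e-08) for ELF3-AS1 and 3.54 (SE 0.28, adjusted p 7.73e-12) for ELF3. The siNONO libraries held 0 to 0.985 CPM of ELF3-AS1, which overlaps the range of siCtrl.

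EPHA5-AS1 (chr4:65669961-65698029, plus strand) lies head to head with EPHA5, a receptor of ephrin ligands. Its level was 3.96, 2.72 and 3.98 CPM in siSFPQ-2 and 4.64, 2.82 and 2.28 CPM in siSFPQ-3, against 0.0892, 0.204 and 0 CPM in siCtrl. With only 3 reads in siCtrl beside 161 in the siSFPQ libraries, the ratio was 40.3 with a counting interval of 13.5 to 197 (95%). EPHA5 rose as well (log2 fold change 5.03, SE 0.46, adjusted p 4.79e-10), and no siSFPQ library of either gene reached down to the siCtrl range. LURAP1L-AS1 rose with LURAP1L in the same way, from 69 reads in the siSFPQ libraries and 2 in siCtrl, a ratio of 25.9 (interval 6.91 to 218).

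Among falls, ID2-AS1 (chr2:8666636-8681864, minus strand) went down with ID2, an inhibitor of helix-loop-helix transcription factors. ID2-AS1 had 15.8, 18.3 and 18.1 CPM in siSFPQ-2 and 12.3, 12.4 and 11.8 CPM in siSFPQ-3, against 67.0, 71.5 and 106 CPM in siCtrl. The changes were -2.49 (SE 0.25, adjusted p 6.22e-08) for ID2-AS1 and -2.43 (SE 0.11, adjusted p 8.49e-16) for ID2. The groups did not overlap for either gene. SOCS2-AS1 fell to 14.5 ± 1.25 CPM in siSFPQ-2 and 10.9 ± 2.19 CPM in siSFPQ-3, against 87.8 ± 8.85 CPM in siCtrl (log2 fold change -2.79, SE 0.10, adjusted p 3.14e-19). Its partner SOCS2, a suppressor of cytokine signalling, fell by less (-1.68, SE 0.06, adjusted p 3.11e-19). CAVIN2-AS1 and CAVIN2, a gene of caveolae, also fell, but the member rests on 2 reads in the siSFPQ libraries and 20 in siCtrl (ratio 0.0751, interval 0.00851 to 0.309).

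A head-to-head start did not always go with a shared direction. PKN2-AS1 (chr1:87620803-88685204, minus strand) had 4.98, 8.66 and 6.81 CPM in siSFPQ-2 and 5.60, 4.41 and 4.21 CPM in siSFPQ-3, against 45.5, 46.5 and 56.1 CPM in siCtrl. Its log2 fold change was -3.15 (SE 0.13, adjusted p 8.18e-18), while PKN2, a protein kinase gene that starts 982 bases away, rose by 0.26 (SE 0.07, adjusted p 0.00212). The rise of PKN2 was called with siSFPQ-2 (0.40, adjusted p 0.000111) but not with siSFPQ-3 (0.11, adjusted p 0.211). ZNF793-AS1, with 7 reads in the siSFPQ libraries and 78 in siCtrl, changed by -3.91 (SE 0.39, adjusted p 1.14e-09). ZNF793, a zinc finger gene, changed by -0.04 (adjusted p 0.715). KIF25-AS1 fell to 0 to 0.209 CPM in the siSFPQ libraries, against 1.96 to 2.86 CPM in siCtrl (log2 fold change -4.07, SE 0.57, adjusted p 4.71e-07), beside -1.73 for the kinesin gene KIF25 (adjusted p 0.0577).

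**Figure D3:**
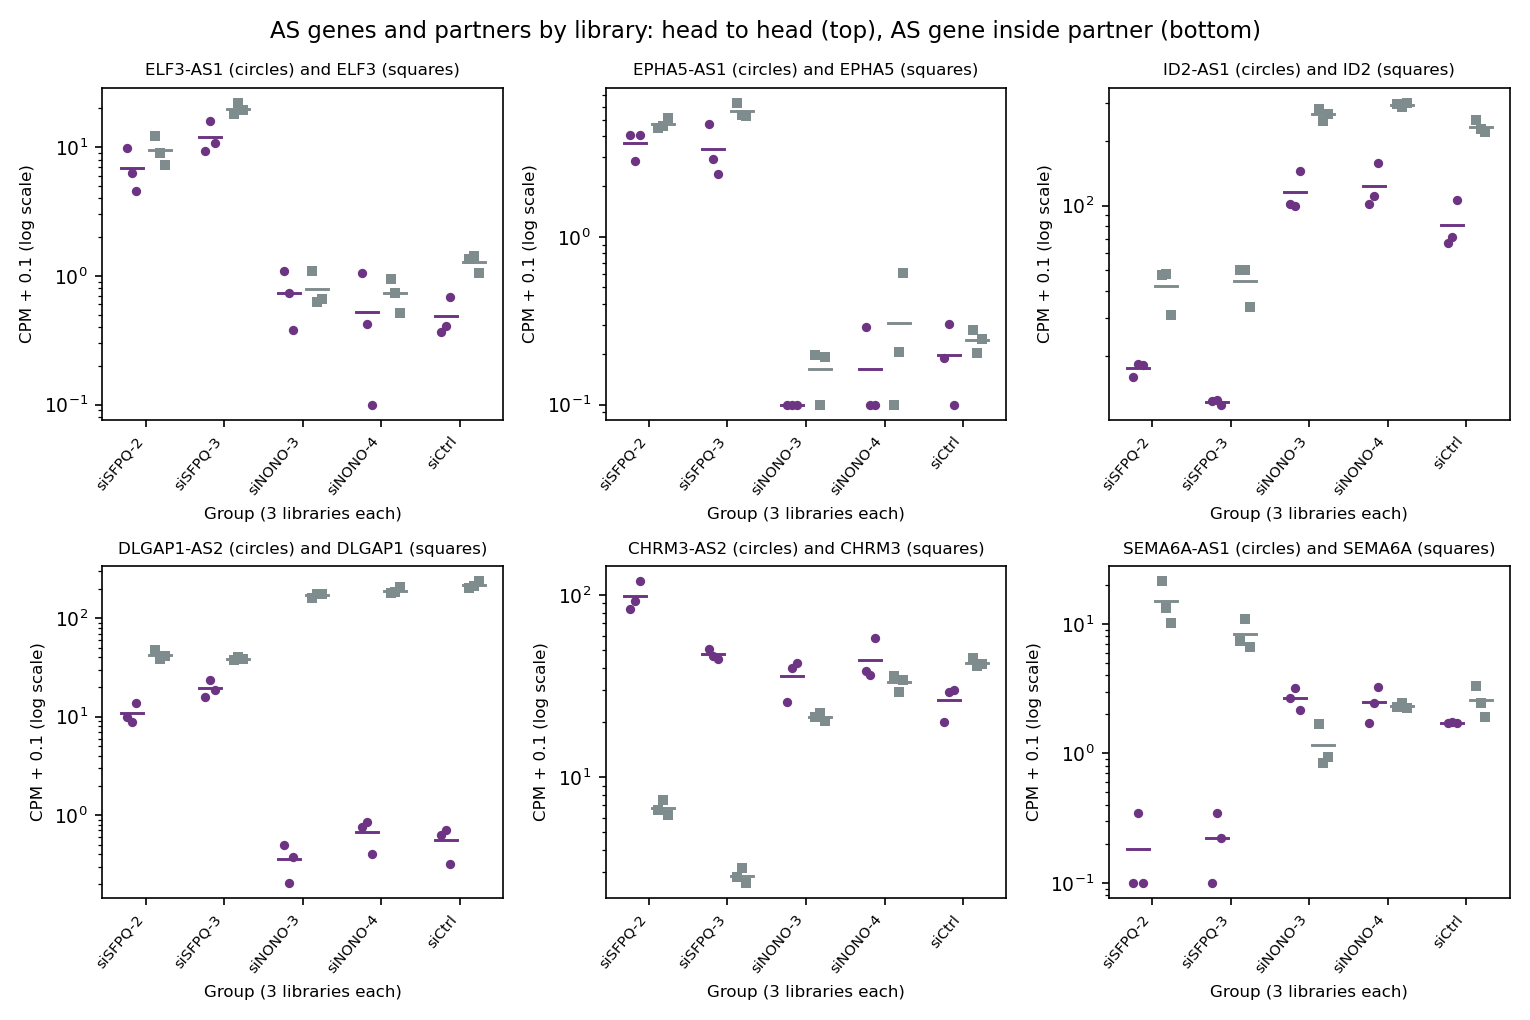
Points are libraries and short lines group means, as CPM plus 0.1 on a log axis, for AS genes (circles) and partners (squares) in the 5 siRNA groups. In the top row both genes of a head-to-head pair move together in the siSFPQ groups. In the bottom row, with the AS gene inside its partner, DLGAP1-AS2 and CHRM3-AS2 are higher and SEMA6A-AS1 lower in the siSFPQ groups than in siCtrl, and their partners go the other way.

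Members inside a very long partner were read apart from the rest. In 15 tested pairs the member lay inside a partner spanning over 300 kb. The median member change after SFPQ knockdown was 0.92 and the median partner change -2.42. In 6 of the 15 the member rose and the partner fell, in 1 the reverse, and in 4 both went the same way. These 15 are not independent, as 4 lie in DLGAP1 and 2 in RBMS3. Over all arrangements, 12 of 30 tested members with such a partner rose and 12 fell (40% each), beside 34.7% and 35.8% of all genes.

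DLGAP1, which encodes a scaffold protein of synapses, spans 959 kb of chromosome 18 on the minus strand and holds 4 tested members on the plus strand. It fell to 47.9, 38.1 and 41.3 CPM in siSFPQ-2 and 37.3, 39.9 and 38.8 CPM in siSFPQ-3, against 203, 213 and 237 CPM in siCtrl (log2 fold change -2.42, SE 0.07, adjusted p 5.84e-21). DLGAP1-AS2 (chr18:3603000-3608336) had 9.83, 8.66 and 13.7 CPM in siSFPQ-2 and 15.7, 23.3 and 18.8 CPM in siSFPQ-3, against 0.535, 0.612 and 0.218 CPM in siCtrl, and rose by 5.02 (SE 0.32, adjusted p 1.04e-13). Gene and antisense gene went in opposite directions in all 6 siSFPQ libraries, with no overlap with siCtrl.

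The neighbour DLGAP1-AS1 (chr18:3593732-3598363) rose by 4.24 (SE 0.36, adjusted p 4.52e-11), with 4.98 to 9.80 CPM in the siSFPQ libraries, against 0.0892 to 0.510 CPM in siCtrl. Distances depend on which start of DLGAP1 is taken. By the RefSeq starts used for the promoter windows, they were 241621 bases for DLGAP1-AS2, 251244 for DLGAP1-AS1 and 87593 for DLGAP1-AS4. From the outermost start in the deposited coordinates, DLGAP1-AS2 lay at 852307 bases and DLGAP1-AS1 at 861575. The members nearer to that outermost start fell with DLGAP1, and the part of position was not tested. DLGAP1-AS3, 577249 bases from that start, fell by 1.16 (SE 0.11, adjusted p 6.24e-10), and DLGAP1-AS4, 492954 bases away, fell by 1.39 (SE 0.13, adjusted p 2.18e-10). DLGAP1-AS4 was named after its values were seen. None of the 4 shares an exonic base with DLGAP1 in the deposited coordinates.

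CHRM3-AS2 (chr1:239703381-239770130, minus strand) lies inside CHRM3, the gene of a muscarinic acetylcholine receptor. The member had 84, 92.8 and 119 CPM in siSFPQ-2 and 50.8, 46.1 and 44.5 CPM in siSFPQ-3, against 20, 29.3 and 30.1 CPM in siCtrl (log2 fold change 1.37, SE 0.25, adjusted p 8.16e-05). CHRM3 had 6.51, 7.43 and 6.07 CPM in siSFPQ-2 and 2.74, 3.06 and 2.53 CPM in siSFPQ-3, against 45.2, 40.9 and 41.5 CPM in siCtrl (log2 fold change -3.32, SE 0.12, adjusted p 5.88e-19). Both siRNAs thus gave groups apart from siCtrl, with the larger rise of the member in siSFPQ-2.

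HMGA2-AS1 lies inside HMGA2, which encodes an architectural chromatin protein and is a known target of let-7 microRNAs. It averaged 2.28 ± 1.18 CPM in siSFPQ-2 and 2.53 ± 0.237 CPM in siSFPQ-3, against 0.770 ± 0.343 CPM in siCtrl, and rose by 1.64 (SE 0.43, adjusted p 0.00149), while HMGA2 fell by 2.59 (SE 0.10, adjusted p 2.62e-18). RNF157-AS1 rose by 1.58 (SE 0.27, adjusted p 1.07e-05) beside a fall of RNF157, a ubiquitin ligase gene, by 2.29 (SE 0.11, adjusted p 9.57e-17). That pair overlaps tail to tail.

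Other members inside their partner fell while the partner rose. SEMA6A-AS1 (chr5:116447547-116508276, plus strand) had 0, 0.248 and 0 CPM in siSFPQ-2 and 0, 0.245 and 0.120 CPM in siSFPQ-3, against 1.61, 1.63 and 1.60 CPM in siCtrl. SEMA6A, a semaphorin gene of axon guidance, had 21.2, 13.1 and 10.1 CPM in siSFPQ-2 and 7.26, 10.8 and 6.49 CPM in siSFPQ-3, against 3.21, 2.35 and 1.82 CPM in siCtrl. The member's log2 fold change was -4.20 (SE 0.55, adjusted p 1.50e-07) and that of SEMA6A 2.17 (SE 0.25, adjusted p 1.53e-08). ZBTB20-AS1 changed by -0.97 (SE 0.31, adjusted p 0.0066) beside 3.07 (SE 0.34, adjusted p 2.48e-08) for ZBTB20, a zinc finger repressor gene, although its lowest siCtrl library, at 1.61 CPM, lay within the siSFPQ-3 range of 0.601 to 2.45 CPM.

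Some of the largest rises came from members next to silent in siCtrl. NAALADL2-AS2, inside NAALADL2, had 59 reads in the siSFPQ libraries and 0 in siCtrl, at least 14.8-fold higher against a floor of 3 counts over the siCtrl group, while NAALADL2 fell by 1.86 (SE 0.21, adjusted p 4.73e-08). The NAALADL2-AS2 level was 3.32, 1.98 and 1.26 CPM in siSFPQ-2 and 0.476, 0.368 and 0.721 CPM in siSFPQ-3. ASB15-AS1 had 49 reads in the siSFPQ libraries and 0 in siCtrl, at least 12.3-fold higher, and its partner ASB15 was too low to test.

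ACTA2-AS1 had 155 reads in the siSFPQ libraries and 3 in siCtrl, a ratio of 38.8 (interval 13.0 to 190), whereas ACTA2, the smooth muscle actin gene, changed by 0.26 (SE 0.19, adjusted p 0.236). SLC7A14-AS1 had 105 and 2 reads, a ratio of 39.4 (interval 10.6 to 330). BCAN-AS1 averaged 30.7 ± 7.63 CPM in siSFPQ-2 and 31.1 ± 4.46 CPM in siSFPQ-3, against 1.03 ± 0.509 CPM in siCtrl (log2 fold change 4.83, SE 0.30, adjusted p 2.33e-13), and BCAN, which encodes brevican of brain matrix, was too low to test.

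Counted over all members, 14 (1.55%) had 0 reads in siCtrl and at least 10 over the siSFPQ libraries, beside 1.57% of all genes with 10 or more reads, so the share lay near the background. 9 of the 14 lie inside their partner, as do 238 of all 904 members, among them CHN2-AS1 with 28 reads, EGFR-AS1 with 20 and DPYD-AS1 with 18. Several of the 14 were close to the cut-off, such as CALCRL-AS1 with 10 reads, and the arrangement was not tested. Conversely, 0 of the 904 members had 10 or more reads in siCtrl and 0 over the siSFPQ libraries, beside 0.145% of all genes with 10 or more reads.

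Further falls completed the named set. MSC-AS1 fell to 2.36 ± 0.343 CPM in siSFPQ-2 and 1.49 ± 0.363 CPM in siSFPQ-3, against 13.6 ± 0.232 CPM in siCtrl (log2 fold change -2.87, SE 0.14, adjusted p 5.20e-16), beside a fall of 2.00 (SE 0.26, adjusted p 8.79e-08) for MSC, which encodes the transcription factor musculin. SLC5A4-AS1 fell by 3.45 (SE 0.40, adjusted p 1.45e-08) and JDP2-AS1 by 2.82 (SE 0.65, adjusted p 0.000422). JDP2, a gene of the AP-1 family, changed by -0.47 (adjusted p 0.19).

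After NONO knockdown, 9 of the 456 tested members rose and 42 fell, which is 11.2% called where 17.4% of all genes were called, 7.48% up and 9.96% down. The share of members that rose, 1.97%, was below that of all genes, and the share that fell, 9.21%, was near it. The median member changed by -0.14, against -0.004 over all genes, and 289 of the 456 had a negative change. Head-to-head members had 4 risen and 23 fallen of 218, with a median of -0.22, and DT genes had 3 and 14 of 213, with a median of -0.20.

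The NONO counts depended on the control libraries and on the replicate number. They fell to 24 called without siCtrl replicate 1 (3 up, 21 down), and to 23 fallen without siCtrl replicate 3. With the replicate number as a block, 17 of the 456 tested members rose, beside 1908 of all 15869 genes (12%). siNONO-3 alone gave 43 called members, or 9.43% of those tested beside 19.9% of all genes. siNONO-4 alone gave 24, or 5.26% beside 11% of all genes. With the block siNONO-3 gave 70 of the 456 members, beside 4579 of all genes (28.9%), and siNONO-4 gave 46, beside 3117 (19.6%). In the fit without it, 11 of the 456 were called with both and in their mean, 3 up and 8 down, beside 961 of all genes (6.06%).

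PAX8-AS1 (chr2:113211421-113276581, plus strand) is named for PAX8, a transcription factor of thyroid and kidney development. It had 19.3, 19.2 and 18.4 CPM in siNONO-3 and 22.4, 19.8 and 17.8 CPM in siNONO-4, against 30.0, 29.2 and 36.5 CPM in siCtrl (log2 fold change -0.71, SE 0.11, adjusted p 2.28e-05). All 6 siNONO libraries were below siCtrl, and the ASO arm stayed between 27.5 and 36.6 CPM. PAX8 changed by -0.71 as well, but at means of 0.921 CPM in siNONO-3, 0.608 in siNONO-4 and 1.23 in siCtrl it did not pass (SE 0.30, adjusted p 0.105).

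ZBED3-AS1 fell to 7.72 ± 1.45 CPM in siNONO-3 and 9.49 ± 0.332 CPM in siNONO-4, against 15.3 ± 1.60 CPM in siCtrl (log2 fold change -0.83, SE 0.13, adjusted p 5.13e-05), and its head-to-head partner ZBED3 fell with it (-0.71, SE 0.08, adjusted p 2.19e-07). The ASO control was also below siCtrl, at 67.0 CPM of ZBED3 in ASO-Ctrl against 88.3 CPM in siCtrl (log2 fold change -0.40, adjusted p 0.0331) and 11.4 CPM of ZBED3-AS1 in ASO-Ctrl against 15.3 CPM in siCtrl (-0.44, adjusted p 0.327). SOX21-AS1, which contains the transcription factor gene SOX21, fell by 1.14 (SE 0.19, adjusted p 9.56e-05) while SOX21 changed by -0.19 (adjusted p 0.568). SOX21-AS1 averaged 4.40 ± 0.56 CPM in siNONO-3 and 3.37 ± 0.98 CPM in siNONO-4, against 8.57 ± 1.77 CPM in siCtrl, but the ASO groups, whose libraries had no NONO siRNA, were low as well. They stood at 4.89 CPM in the libraries labelled ASO-NEAT1-1047, 5.84 CPM in those labelled ASO-NEAT1-1473 and 4.97 ± 0.19 CPM in ASO-Ctrl, and ASO-Ctrl differed from siCtrl by -0.77 (adjusted p 0.144). WDFY3-AS2 fell by 0.72 (SE 0.14, adjusted p 0.000627) and ITGA9-AS1 by 0.96 (SE 0.21, adjusted p 0.00184). ITGA9-AS1 stood at 2.69 CPM in siNONO-3 and 2.96 CPM in siNONO-4, against 5.48 CPM in siCtrl, with ASO-Ctrl between them at 3.82 CPM. WDFY3, an autophagy adaptor gene, changed by -0.05 (adjusted p 0.702).

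The largest of these falls, -3.40 for ZFHX4-AS1 (SE 0.62, adjusted p 0.000279), rests on an uneven control, with 0 to 0.284 CPM in the siNONO libraries against 2.23, 0.919 and 0.291 CPM in siCtrl, and was -2.43 without siCtrl replicate 1. ASO-Ctrl averaged 0.403 CPM. ZFHX4-AS1 rose after SFPQ knockdown, by 1.90 (SE 0.38, adjusted p 6.70e-05).

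Rises after NONO knockdown with both siRNAs were 3. GAS6-AS1 had 25.7, 22.3 and 26.7 CPM in siNONO-3 and 15.4, 19.1 and 21.1 CPM in siNONO-4, against 8.03, 7.35 and 16.1 CPM in siCtrl (log2 fold change 1.01, SE 0.23, adjusted p 0.00314), and siNONO-4 overlapped siCtrl. GAS6, a ligand of the TAM receptors, changed by 0.45 (SE 0.17, adjusted p 0.0645). KRT10-AS1 rose by 0.50 (SE 0.12, adjusted p 0.00451), but its adjusted p was 0.0718 without siCtrl replicate 1, and the keratin gene KRT10, head to head with it, fell by 0.80 (SE 0.18, adjusted p 0.00509). OIP5-AS1 rose by 0.21 (SE 0.06, adjusted p 0.0172), with adjusted p values of 0.0827 and 0.112 without siCtrl replicates 1 and 3, and of 0.0594 and 0.0528 without siNONO-3 or siNONO-4 replicate 2. It averaged 235 CPM in siNONO-3 and 238 CPM in siNONO-4, against 205 CPM in siCtrl, and ASO-Ctrl stood as high, at 242 ± 4.73 CPM (0.24 over siCtrl on the log2 scale, adjusted p 0.176).

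Both genes of a pair were called after NONO knockdown in 14 of 398 pairs, with 8 falling together and 6 in opposite directions, or 22 same and 10 opposite with the replicate block. Without siCtrl replicate 1 the counts were 3 and 0. Among head-to-head pairs 6 went the same way and 3 opposite, or 17 same with the block. HMGA2-AS1 rose by 1.67 (SE 0.43, adjusted p 0.00713) while HMGA2 fell by 0.78 (SE 0.10, adjusted p 2.27e-06), as after SFPQ knockdown. The rise of HMGA2-AS1 was called with siNONO-3 (2.34, adjusted p 0.000427, at 4.07 CPM) but not with siNONO-4 (0.99, adjusted p 0.23, at 1.59 CPM), and its adjusted p for the mean was 0.0530 without siCtrl replicate 1.

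TMEM26-AS1 (chr10:61452639-61481956, plus strand) and TMEM26, a transmembrane protein gene, were called in opposite directions after NONO knockdown and both fell after SFPQ knockdown. Yet the log2 ratio of member to partner was higher by similar amounts, 3.61 after NONO and 3.41 after SFPQ knockdown. Each had an exact p of 0.0119, the smallest possible, in the permutation test over libraries that is described further on. The member had 2.36, 3.92 and 3.16 CPM in siNONO-3 and 1.42, 2.78 and 2.56 CPM in siNONO-4, against 1.69, 1.63 and 1.09 CPM in siCtrl (log2 fold change 0.86, SE 0.30, adjusted p 0.0435). By siRNA this was 1.11 (adjusted p 0.0174) with siNONO-3 and 0.62 (adjusted p 0.269) with siNONO-4. It fell after SFPQ knockdown, to 0.119 to 0.419 CPM (log2 fold change -2.60, SE 0.44, adjusted p 8.45e-06). TMEM26 fell in both, by 3.13 (SE 0.21, adjusted p 7.35e-10) after NONO knockdown and by 5.59 (SE 0.28, adjusted p 3.32e-14) after SFPQ knockdown. The NONO call of the member was lost with DESeq2 (adjusted p 0.0949), without any of the siCtrl libraries (0.0756, 0.0763 and 0.206) and without several others. CLN8-AS1 fell by 0.61 (SE 0.16, adjusted p 0.0086) while CLN8 rose by 0.54 (SE 0.14, adjusted p 0.00651), and the member's adjusted p was 0.0635 and 0.0572 without siCtrl replicates 1 and 3. The rise of CLN8 was called with siNONO-3 (0.92, adjusted p 9.38e-05) but not with siNONO-4 (0.16, adjusted p 0.576), and the fall of CLN8-AS1 had adjusted p values of 0.0154 with siNONO-3 and 0.052 with siNONO-4.

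**Figure D4:**
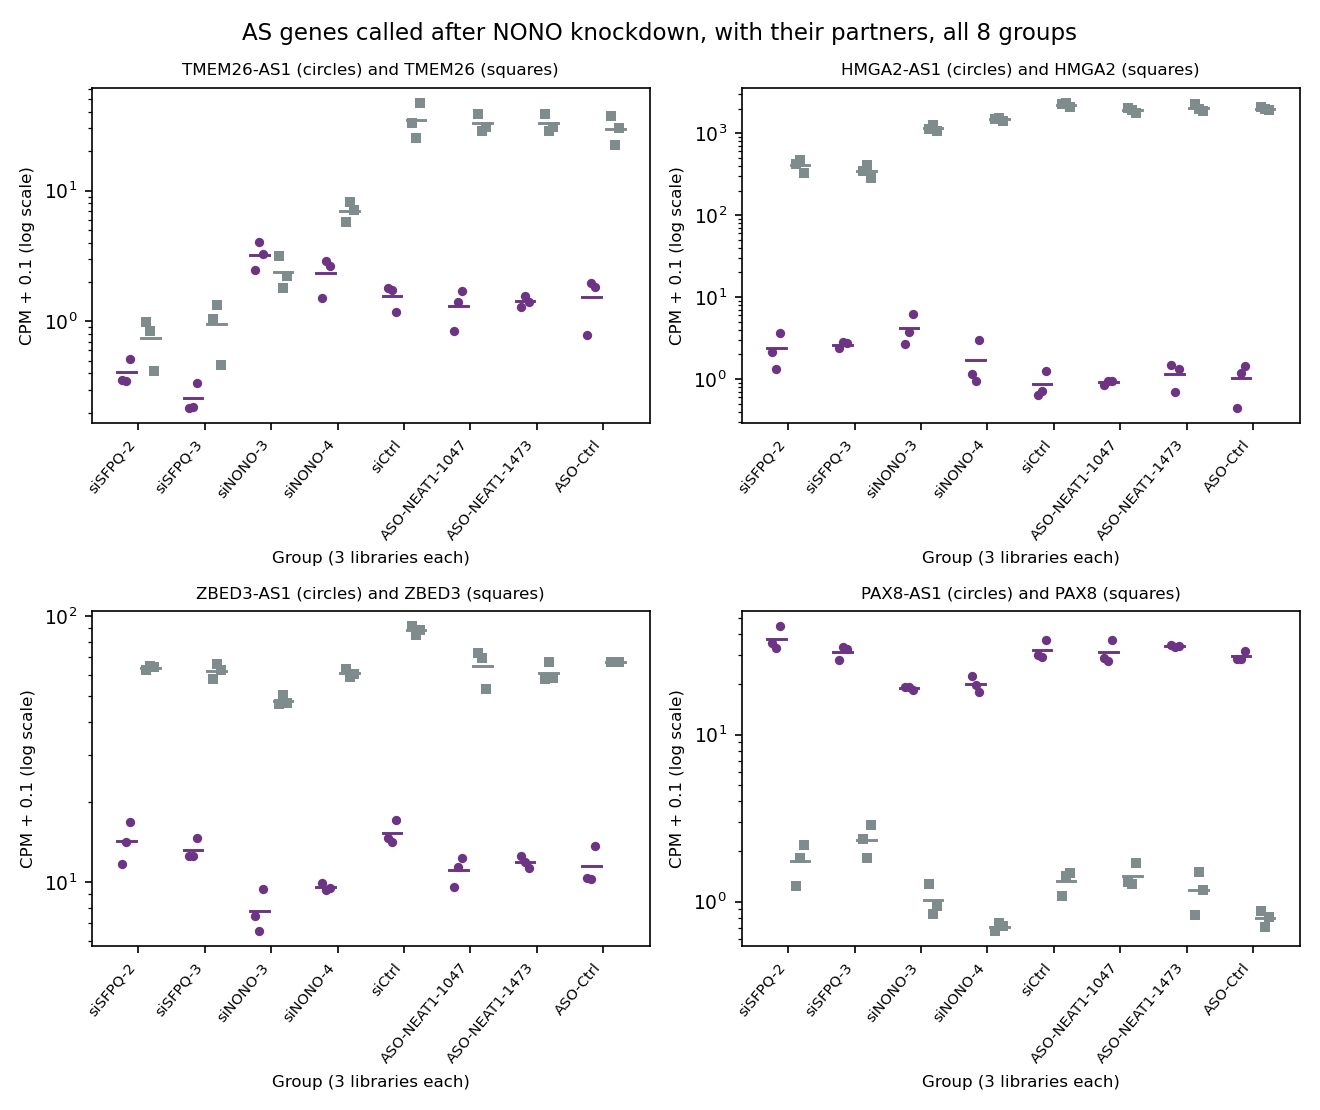
Points are libraries and short lines group means, as CPM plus 0.1 on a log axis, for 4 AS genes (circles) and their partners (squares) in all 8 groups. TMEM26 is lower in all 4 knockdown groups than in siCtrl and TMEM26-AS1 only in the siSFPQ groups. PAX8-AS1 lies between 17.8 and 22.4 CPM in the siNONO groups and at 27.5 CPM or above in all others.

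Set directly against each other, the siSFPQ and siNONO libraries differed at 313 of 456 members, 155 higher and 158 lower in siSFPQ, which is 68.6% where 75.4% of all genes differed, 37% higher and 38.4% lower. The difference was 1.78 (SE 0.12) for WDFY3-AS2, with 22.1 ± 5.05 CPM in siSFPQ-2 and 19.6 ± 2.64 CPM in siSFPQ-3, against 5.21 ± 0.184 CPM in siNONO-3 and 7.03 ± 0.625 CPM in siNONO-4. GAS6-AS1 went the other way, by -3.37 (adjusted p 1.80e-11).

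In the libraries labelled ASO-NEAT1, 0 members and 0% of all genes were called against ASO-Ctrl by edgeR, and DESeq2 gave 0 members as well. At an unadjusted p under 0.05 there were 5 members (1.10%), beside 353 genes (2.22%). Against siCtrl, ASO-Ctrl had 0 members called by edgeR where 0.454% of all genes were, and 1 by DESeq2. With the replicate block it had 3 of 456 members, beside 351 of 15869 genes (2.21%). For 1 example, SOCS2-AS1 stood at 80.4 to 103 CPM in the libraries labelled ASO-NEAT1, against 80.7 to 99.7 CPM in ASO-Ctrl.

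The 10 members of highest CPM in siCtrl were taken for their level, not their response. After SFPQ knockdown, SOCS2-AS1, ID2-AS1, DLGAP1-AS3 and FGD5-AS1 fell, PSMA3-AS1, ENTPD1-AS1 and THUMPD3-AS1 rose, and OIP5-AS1, GABPB1-AS1 and OTUD6B-AS1 did not pass the test. The fall of FGD5-AS1 was -0.14 (SE 0.06, adjusted p 0.0308), and it was lost with another scaling (adjusted p 0.106) with DESeq2 (0.06) and without siCtrl replicate 1 or 2 or siSFPQ-2 replicate 3 (0.0701, 0.107 and 0.0878). THUMPD3-AS1 averaged 82.2 ± 11.6 CPM in siSFPQ-2 and 91.5 ± 5.35 CPM in siSFPQ-3, against 54.8 ± 4.14 CPM in siCtrl (log2 fold change 0.66, SE 0.08, adjusted p 6.96e-08). After NONO knockdown OIP5-AS1 rose and FGD5-AS1 fell, by 0.36 (SE 0.06, adjusted p 6.77e-05), with -0.58 for siNONO-3 (adjusted p 6.00e-07) and -0.14 for siNONO-4 (adjusted p 0.194). With the replicate block ID2-AS1 was also called, at 0.55 (adjusted p 3.55e-06), as were SOCS2-AS1 at -0.24 (0.0147) and DLGAP1-AS3 at -0.20 (0.0351).

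For these 10 and for a list of much-studied antisense genes, the log2 ratio of member to partner was compared per library, 46 comparisons of 23 pairs, by an exact 2-sided permutation test over 9 libraries whose smallest p is 0.0119 (0.0391 adjusted over the 46). The ratio of ID2-AS1 to ID2 averaged -1.52 ± 0.455 in the siSFPQ libraries and -1.53 ± 0.435 in siCtrl (SD, n = 6 and 3), a difference of 0.01 with exact p 0.964. That of SOCS2-AS1 to SOCS2 was lower by 1.09, at -3.44 ± 0.314 in the siSFPQ libraries against -2.35 ± 0.168 in siCtrl (exact p 0.0119). The ratio of DLGAP1-AS3 to DLGAP1 was higher by 1.27 and that of THUMPD3-AS1 to THUMPD3, a tRNA methyltransferase gene, by 1.11, both at the smallest exact p of 0.0119. The same p was found for higher ratios of TMEM26-AS1, PSMA3-AS1, LIN28B-AS1 and EGFR-AS1. It was also found for lower ratios of CDKN2B-AS1 (-1.35), VIM-AS1 (-0.75), HIF1A-AS1 (-0.90) and GATA6-AS1 (-1.86). EGFR-AS1, HIF1A-AS1 and GATA6-AS1 had few reads, so their ratios lean on the pseudocount. After NONO knockdown the SOCS2-AS1 ratio differed by -0.02 (exact p 0.821). The smallest exact p was found there for TMEM26-AS1 (3.61), NR2F1-AS1 (0.92) and FGD5-AS1 (-0.53).

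The list of much-studied antisense genes had 21 names, of which 14 were members and 8 were tested. CDKN2B-AS1, also called ANRIL, at the locus of the cell cycle inhibitors CDKN2A and CDKN2B, averaged 2.13 ± 0.667 CPM in siSFPQ-2 and 2.53 ± 0.737 CPM in siSFPQ-3, against 0.699 ± 0.329 CPM in siCtrl (log2 fold change 1.75, SE 0.45, adjusted p 0.00119). CDKN2B rose by 2.80 (SE 0.21, adjusted p 2.45e-12). VIM-AS1 rose by 1.33 (SE 0.20, adjusted p 1.25e-06) beside 1.96 (SE 0.18, adjusted p 5.51e-09) for VIM, which encodes the mesenchymal filament vimentin.

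NR2F1-AS1 rose by 1.72 (SE 0.32, adjusted p 3.43e-05) and the nuclear receptor gene NR2F1 by 1.89 (SE 0.23, adjusted p 3.95e-08). LIN28B-AS1 fell by 1.16 (SE 0.20, adjusted p 9.02e-06) and LIN28B, whose protein blocks let-7 maturation, by 1.66 (SE 0.08, adjusted p 1.91e-16). ZEB1-AS1 was at the edge of the test, with 0.48 (SE 0.21, adjusted p 0.0453, or 0.262 without siCtrl replicate 1), and NNT-AS1 changed by 0.20 (SE 0.10, adjusted p 0.0679). EGFR-AS1, inside the growth factor receptor gene EGFR, was too low for the edgeR test. It had 0.209 to 0.858 CPM in the siSFPQ libraries and no read in the siNONO, siCtrl or ASO libraries, while EGFR fell by 2.69 (SE 0.19, adjusted p 1.43e-12).

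ZEB2-AS1, AFAP1-AS1, MEF2C-AS1, HIF1A-AS1 and GATA6-AS1 were likewise too low for the edgeR test. GATA6-AS1, for instance, had 0.524 to 1.49 CPM in the siSFPQ libraries and 0.582 to 1.33 CPM in siCtrl, which overlap, while the transcription factor gene GATA6 rose by 1.93 (SE 0.18, adjusted p 2.92e-10).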

How the data were processed

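The values deposited by the authors are raw counts, whole numbers for each gene, beside the gene's coordinates. Tools named in the submitters' processing notes are cutadapt 4.2, STAR 2.7.5a, Subread 2.0.3 with featureCounts, and DESeq2 1.38.1, and the build is hg38. No source used here gives the annotation release or strand setting. Library totals ran from 4243196 to 14886353 reads, which limits genes of few reads, and intervals and floors cover counting error only.

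Symbols were matched for 60463 genes. The quasi-likelihood fit ran in R 4.3.3 under edgeR 4.0.16 (TMM factors 0.949 to 1.045, filter by group, robust), all 24 libraries in 1 fit without a replicate block. Both reagents of a target were averaged and set against that arm's control. A call needed an adjusted p (Benjamini-Hochberg, 15869 genes) under 0.05, and only called genes are said to have risen or fallen. Fold changes are log2. Ratios used log2(CPM + 0.5). Alternatives were other scalings, filters and libraries, DESeq2 1.42.0, a replicate block, each library left out, other pseudocounts and non-overlapping pairs only.

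Members and lists were chosen with earlier results of these data known. Named were the largest changes per target called with both siRNAs at 1 CPM or more in a group (8 up and 8 down for SFPQ, 6 for NONO), the most divergent opposite pairs (8 and 4), the 4 largest each way between targets, the 10 highest members and a list of 21. Same-numbered libraries deviated together in the NONO arm (correlations 0.114 to 0.329) and ASO arm (0.131 to 0.428), so the numbers were taken to pair them there. In the SFPQ arm the correlations (0.011 to 0.278) overlapped these ranges, and the numbers were not taken to pair the libraries. As the SFPQ and NONO arms share siCtrl and their ranges overlap, this choice is not firm. The main fit had no block in any arm, so the NONO calls ignore this pairing unless the block is named. The exact tests of ratios ignore it as well.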

Additional observations from a re-analysis of the deposited data

Results flagged for a closer look

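Between the SFPQ and NONO effects, the 4 largest differences in each direction were picked among members with at least 1 CPM in a group. They were picked by the size of the difference (siSFPQ minus siNONO, log2, edgeR). The test of that same difference is thus no separate support for them. ACTA2-AS1 led with 7.13 (155 reads over the siSFPQ libraries and 1 over the siNONO libraries), followed by LURAP1L-AS1 with 6.91 (69 and 0 reads), EPHA5-AS1 with 6.81 (161 and 2 reads) and NAALADL2-AS2 with 5.53 (59 and 1 reads). With so few reads in siNONO these 4 fitted values depend on the prior count. These 4 members reached a group mean of 1 CPM only in siSFPQ libraries. SEMA6A-AS1 differed by -4.80, at 0 to 0.248 CPM in the siSFPQ libraries against 1.61 to 3.17 CPM in the siNONO libraries. CAVIN2-AS1 differed by -4.10, ZNF793-AS1 by -3.88 and KIF25-AS1 by -3.51. Reads in siSFPQ were few here, with 4 for SEMA6A-AS1, 2 for CAVIN2-AS1, 7 for ZNF793-AS1 and 6 for KIF25-AS1. The negative values thus depend on the prior count as well. In the edgeR test the adjusted p values of the 8 ran from 1.50e-10 to 5.50e-06. The same contrast called 75.4% of all genes.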

How the results depend on the processing

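No count of called members and no named change reversed under any alternative run, and 2292 of the comparisons of named genes and ratios with an alternative kept their call, 49 lost it and 12 gained it. The counts for SFPQ moved little. Leaving out each library in turn gave 261 to 299 called members (115 to 134 up, 136 to 169 down), 215 to 263 for siSFPQ-2, 240 to 279 for siSFPQ-3, 306 to 334 between SFPQ and NONO, 100 to 119 same and 61 to 77 opposite pairs, and 58 to 69 and 23 to 33 head to head.

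For NONO the ranges were 24 to 56 called (3 to 12 up, 21 to 46 down), 29 to 48 for siNONO-3, 9 to 27 for siNONO-4, 3 to 10 same and 0 to 6 opposite pairs, and 2 to 8 and 0 to 3 head to head. The lowest of these counts came without siCtrl replicate 1, except for siNONO-3 and siNONO-4 alone, which were lowest without their own replicate 3. The replicate block gave 17 risen members for NONO, 70 for siNONO-3, 46 for siNONO-4, 22 same and 10 opposite pairs, 17 same head to head, and 3 between ASO-Ctrl and siCtrl. Among named members it changed the calls of ID2-AS1, SOCS2-AS1 and DLGAP1-AS3 for NONO and no other. In the SFPQ arm, where the numbers were not taken to pair the libraries, the block gave 293 called of 456 members, against 287 without it. The matching share of all genes was not taken. DESeq2 gave 1 between the controls, and siNONO-4 had 15 without the filter. Pairs that do not overlap, fewer by construction, gave 10 same and 7 opposite for SFPQ and 0 and 0 for NONO. Except for that restriction, the cause was not tested.

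Single calls near the threshold were ZEB1-AS1 and FGD5-AS1 for SFPQ and TMEM26-AS1, OIP5-AS1, KRT10-AS1, HMGA2-AS1 and CLN8-AS1 for NONO. Among ratios, by unadjusted exact p, that of ENTPD1-AS1 had 0.0833 with a pseudocount of 1 against 0.0357 with 0.5. Those of ZEB2-AS1, MEF2C-AS1 and NR2F1-AS1 had 0.262, 0.0595 and 0.0952 with 0.1 against 0.0238 each with 0.5. None of these 4 passed with adjustment over the 46 (0.0782 for ENTPD1-AS1, 0.0576 for the others). The 448 untested members are limited by depth.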

Other observations

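The 5 tested members without a listed partner lie in HOX clusters, the gene arrays that set position along the body, and were named after their values were seen. HOXB-AS1 (chr17:48543551-48551250, plus strand) fell to 5.39 ± 1.77 CPM in siSFPQ-2 and 3.81 ± 0.650 CPM in siSFPQ-3, against 16.7 ± 4.71 CPM in siCtrl (log2 fold change -1.93, SE 0.18, adjusted p 1.81e-10). HOXB-AS3 beside it fell by 0.67 (SE 0.11, adjusted p 3.53e-06) after SFPQ knockdown and by 0.31 (adjusted p 0.0429) after NONO knockdown. In the HOXA cluster, HOXA-AS2 (chr7:27107777-27134302, plus strand) averaged 9.01 ± 1.91 CPM in siNONO-3 and 11.1 ± 2.92 CPM in siNONO-4, against 16.0 ± 0.707 CPM in siCtrl (log2 fold change -0.69, adjusted p 0.000932), and changed by 0.08 after SFPQ knockdown (adjusted p 0.624). HOXA-AS3 and HOXC-AS3 passed in neither, with changes of -0.56 (adjusted p 0.159) and -0.59 (0.189) after NONO knockdown.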
